A study of Mus musculus with 2 samples.

Results

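T-box transcription factors are DNA-binding proteins that share a conserved domain, the T-box, and act as activators or repressors of developmental genes. The 9 genes described here (Tbx1, Tbx2, Tbx3, Tbx4, Tbx5, Tbx15, Tbx18, Tbx20 and Tbx22) were chosen by name from the 22072 gene symbols of the deposited tables, in which they have 14 transcript rows. Earlier results of these data were known when they were chosen. RNA came from lower molar mesenchyme of mouse embryos at embryonic day 14.5, on a mixed background. One library was made from Osr2-/- embryos (n = 1) and one from Osr2+/- embryos, the controls, which also carry 1 mutant allele (n = 1). The mesenchyme was cut from frozen sections by laser capture, tissue of 3 pairs was pooled before RNA extraction, and cDNA was amplified with a kit for small amounts of RNA. Osr2 is a zinc-finger gene active in dental mesenchyme, and its loss in mice gives supernumerary teeth beside the molars. The series title calls the control wild type, while the sample label gives Osr2+/-, which is followed here. Which part of Osr2 the mutant allele lacks, and the sex of the embryos, are not given in the sources used here.

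T-box genes are used in different parts of the embryo. Tbx1 is known from the pharyngeal arches and the dental epithelium, Tbx2 and Tbx3 from the limb, heart and mammary gland, Tbx4 and Tbx5 from limb buds, lung and heart, Tbx15 and Tbx18 from skeletal and vascular mesenchyme, Tbx20 from the heart and Tbx22 from the palate and tongue. Tbx2 and Tbx3 are closely related repressors, and Tbx2 and Tbx4, like Tbx3 and Tbx5, lie next to each other in the mouse genome.

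With 1 library per genotype nothing measures the spread within a genotype, so no test was possible and every difference below describes these 2 libraries. Levels are RPKM, which corrects the reads of a transcript for its length and for the depth of the library. Their 95% counting intervals rest on read numbers estimated from coverage and cover counting error only. In bulk tissue, fewer cells of a type and less RNA per cell cannot be told apart. Mapped reads, estimated from coverage at 45.4 bases per read, were about 33.5 M for Osr2-/- and about 5.25 M for Osr2+/-. Both numbers depend on the bases taken per read, but the Osr2-/- library was the deeper whatever that value. Each genotype was run on a lane of its own, and the effects of lane and genotype cannot be told apart. Osr2 itself was at 9.16 RPKM in the Osr2-/- library and 38.7 RPKM in the Osr2+/- library, a fold of 0.236 (interval 0.206 to 0.271). Of 12 dental mesenchyme markers, 11 reached 1 RPKM in at least 1 library and none was at 0; their summed level was 437 RPKM in the Osr2-/- library and 516 RPKM in the Osr2+/- library. The summed level of 16 dental epithelium markers was 69.7 RPKM in the Osr2-/- library and 49.95 RPKM in the Osr2+/- library, where Shh was listed at 0. That of 8 bone genes was 49.5 RPKM in the Osr2-/- library and 16.8 RPKM in the Osr2+/- library, where Ifitm5, Spp1 and Bglap were listed at 0. Epithelial and bone markers were thus higher, and mesenchyme markers lower, in the Osr2-/- library. Skeletal muscle genes summed to 7.15 RPKM in the Osr2-/- library and 4.53 RPKM in the Osr2+/- library (11 genes), endothelial genes to 25.8 RPKM in the Osr2-/- library and 31.5 RPKM in the Osr2+/- library (9 genes), and erythroid genes to 811 RPKM in the Osr2-/- library and 1025 RPKM in the Osr2+/- library (8 genes).

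Sequence bears on the T-box values in 2 ways: reads must be assigned to the right paralogue, and Tbx3 has a pair of transcript rows that differ by 1 exon. The transcripts of the members in GENCODE M21 were compared over all 36 pairs of genes. The longest exact run that any pair shared was 42 bases, and the median was 17 bases. The 45.4 bases taken per read here are a median of values limited to 20 to 66 bases. They therefore cannot show whether reads are longer than the 42-base run. The 2 longest runs, shared by Tbx5 and Tbx22 (42 bases) and by Tbx4 and Tbx20 (32 bases), are simple repeats. Runs of 21 bases are not shown, and an exact run does not measure how alike a pair of paralogues is as a whole. The next longest runs after the repeats, of 23 bases each, and the longest run of Tbx2, of 20 bases, are shown.
Tbx15 and Tbx18: catagctctaagtggatggtggc
Tbx4 and Tbx5: cagctgaaaattgagaacaaccc
Tbx2 and Tbx5: atcctgaactccatgcacaa
Between Tbx2 and Tbx3, the 2 abundant members, the longest shared run was 14 bases. The sources used here give no read length, and reads aligned with mismatches were not considered.

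The Tbx3 rows are 5082 and 5022 bases long, and the 60-base difference is a coding exon. It lies at chr5:119675243-119675302 in GRCm38, on the plus strand, and is exon 3 of the longer transcript. In the line below it is in capitals, with 15 bases of the neighbouring exons on each side in lower case.
Tbx3 exon 3: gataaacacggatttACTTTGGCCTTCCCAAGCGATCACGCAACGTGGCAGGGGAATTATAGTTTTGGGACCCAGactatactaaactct
The row without this exon was at 6.70 RPKM in the Osr2-/- library and 10.6 RPKM in the Osr2+/- library. The row with it was at 6.26e-05 RPKM in the Osr2-/- library and 0.000353 RPKM in the Osr2+/- library. It thus held 0.000934% of the Tbx3 level in the Osr2-/- library and 0.00335% in the Osr2+/- library, so almost all of the level was assigned to the transcript without the exon in both. The split between rows is the estimate deposited by the authors, and reads over the exon itself were not analysed here.

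Tbx3 was the most abundant member in both libraries and was lower in the Osr2-/- one. Its level was 6.70 RPKM in the Osr2-/- library (interval 6.32 to 7.11, about 1127 reads) and 10.6 RPKM in the Osr2+/- library (9.35 to 11.9, about 278 reads). The intervals of the 2 libraries do not overlap. The fold of Osr2-/- over Osr2+/- was 0.635 (0.557 to 0.727), or 1.57-fold lower, a log2 ratio of -0.58 after adding 1 RPKM. Tbx3 lies at chr5:120120678-120134610 in mm9. Among the 22054 genes measured, 88.1% were at or below it in the Osr2-/- library and 92.5% in the Osr2+/- library.

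Tbx2, the paralogue of Tbx3, was the second most abundant member and was higher in the Osr2-/- library. It was at 2.76 RPKM in the Osr2-/- library (2.47 to 3.08, about 329 reads) and 1.52 RPKM in the Osr2+/- library (0.996 to 2.17, about 28 reads). Here too the intervals do not overlap, although the Osr2+/- value rests on few reads. The fold was 1.81 (1.25 to 2.82), with a log2 ratio of 0.58. Tbx2 lies at chr11:85646117-85655450 in mm9 and is listed with 1 row of 3562 bases.

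The paralogues thus differed in opposite directions. Tbx3 exceeded Tbx2 2.43 times in the Osr2-/- library and 6.94 times in the Osr2+/- library. Tbx3 made up 58.8% of the summed level of the 9 genes in the Osr2-/- library and 74.9% in the Osr2+/- library, and Tbx2 made up 24.2% in the Osr2-/- library and 10.8% in the Osr2+/- library. The balance thus lay further towards Tbx2 in the Osr2-/- library. The summed level of the 9 genes was 11.4 RPKM in the Osr2-/- library and 14.1 RPKM in the Osr2+/- library. The other 7 members together came to 1.94 RPKM in the Osr2-/- library and 2.02 RPKM in the Osr2+/- library.

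**Figure D1:**
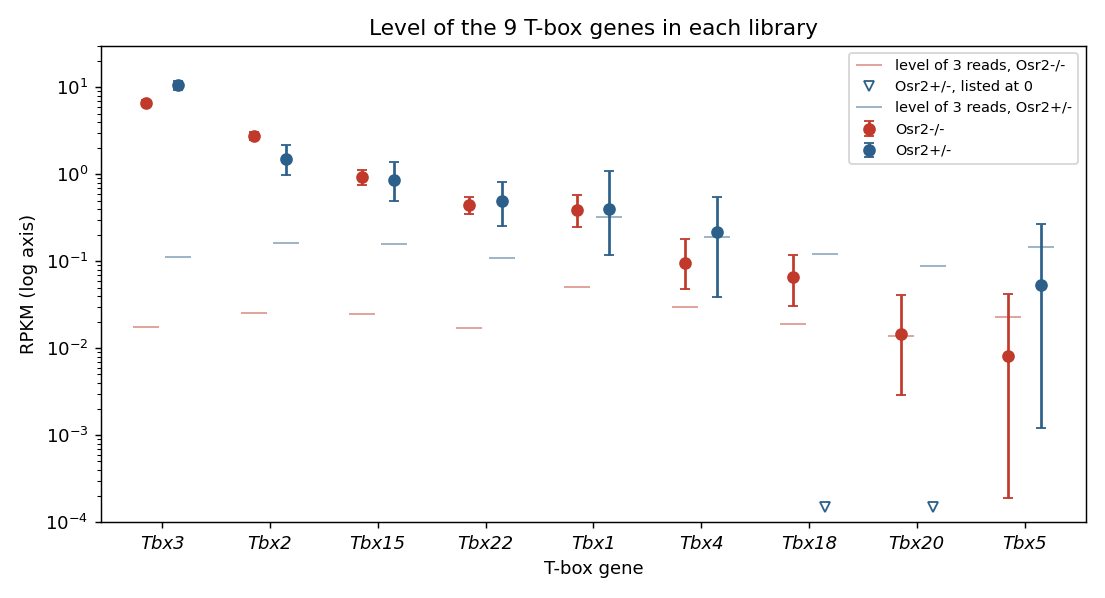
RPKM (log axis) of each T-box gene in the Osr2-/- and Osr2+/- libraries, with points for the level, bars for the 95% counting interval, short lines for the level that 3 reads give and open triangles for genes listed at 0. Tbx3 and Tbx2 stand above the others and differ in opposite directions, and Tbx18 and Tbx20 are listed at 0 in the shallower Osr2+/- library.

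Tbx2 and Tbx3 were also the 2 members that reached 1 RPKM in at least 1 library and so entered the comparison over 9779 genes. Neither was 2-fold apart on the scale of log2(RPKM + 1); of all genes compared, 0.890% were at least 2-fold higher in the Osr2-/- library and 0.798% at least 2-fold lower. Neither reached 1.5-fold on that scale, on which 2.55% of genes were higher and 3.57% lower by that much. Both lay just inside, at 0.58 and -0.58, so small changes of scale move them across that limit. Tbx2 is past it when ratios are centred on the median of all genes, and both are when 0.1 RPKM is added in place of 1. A counting interval above 1, as for Tbx2, was found for 7.62% of all genes compared, and one below 1, as for Tbx3, for 15.5%. The median log2 ratio of all genes compared was -0.05.

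**Figure D2:**
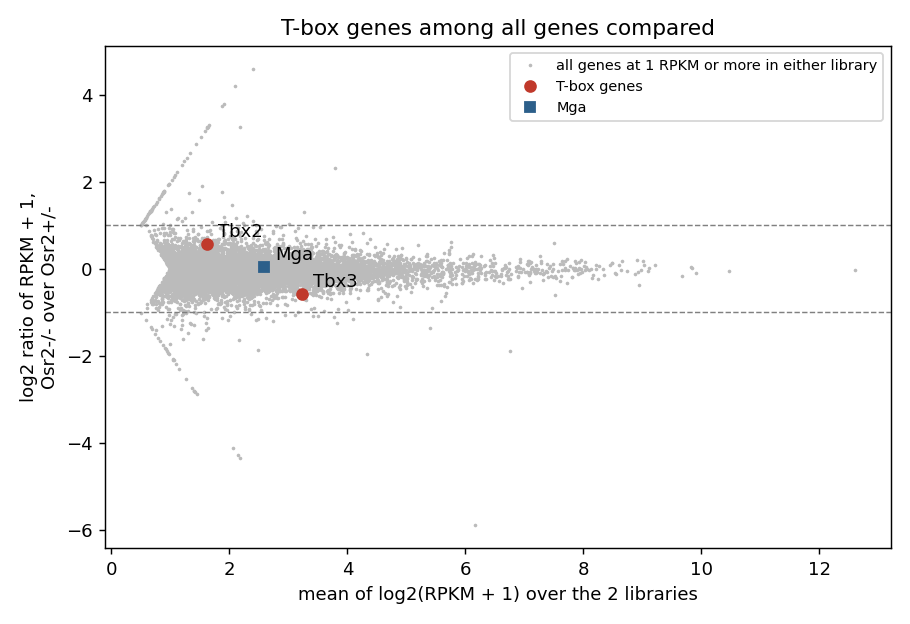
Log2 ratio of RPKM + 1, Osr2-/- over Osr2+/-, against the mean log2(RPKM + 1) of the 2 libraries for the 9779 genes at 1 RPKM or more in either library (grey), with Tbx2 and Tbx3 in red, the T-box gene Mga in blue and dashed lines at 2-fold. Tbx2 at 0.58 and Tbx3 at -0.58 lie on opposite sides of the cloud, inside the 2-fold lines.

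A second group, Tbx15, Tbx22 and Tbx1, was present at under 1 RPKM and was at similar levels in both libraries. Tbx15, which is required for normal skeletal development, was at 0.929 RPKM in the Osr2-/- library (0.765 to 1.12, about 111 reads) and 0.851 RPKM in the Osr2+/- library (0.489 to 1.39, about 16 reads). Its fold was 1.09, with an interval of 0.641 to 1.97 that takes in both a lower and a nearly 2-fold higher level. It lies at chr3:99057683-99158183 in mm9.

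Tbx22, whose loss causes cleft palate in humans, was at 0.441 RPKM in the Osr2-/- library (0.350 to 0.555, about 76 reads) and 0.494 RPKM in the Osr2+/- library (0.258 to 0.828, about 13 reads). The fold was 0.893 (0.505 to 1.80), so the intervals overlap widely. The gene is on chromosome X, at chrX:104863303-104884319 in mm9, and has a pair of rows. The row of 5118 bases held nearly all of the level in both libraries, and the row of 5222 bases held 0.0117% of it in the Osr2-/- library and 0.0134% in the Osr2+/- library.

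Tbx1, which is known from the dental epithelium, was at 0.388 RPKM in the Osr2-/- library (0.245 to 0.580, about 23 reads) and 0.400 RPKM in the Osr2+/- library (0.117 to 1.10, about 4 reads). The fold was 0.972 (0.308 to 3.59). On 4 Osr2+/- reads even a 3-fold difference in either direction lies within the interval. Epithelial markers were higher in the Osr2-/- library, where all 13 markers compared had a log2 ratio above 0. Of these, 8 had an interval above 1, beside 7.62% of all genes compared. The part of epithelium in the Tbx1 level was not tested. The gene lies at chr16:18581806-18587062 in mm9.

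The other 4 members were at or near 0 in both libraries. Tbx4, a hindlimb and lung factor at chr11:85703565-85729599 in mm9, was at 0.0954 RPKM in the Osr2-/- library (about 10 reads) and 0.219 RPKM in the Osr2+/- library (about 3 reads). The ratio was 0.435, with a counting interval of 0.135 to 2.96. Its longer row of 3011 bases held 99.9% of the level in the Osr2-/- library and 97.3% in the Osr2+/- library. Tbx5, the forelimb and heart factor at chr5:120284672-120335227, was at 0.00825 RPKM in the Osr2-/- library and 0.0533 RPKM in the Osr2+/- library, on about 1 read in each. No difference could be detected for either gene at this depth.

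Tbx18, a gene of pericytes and other mural cells at chr9:87597635-87626095 in mm9, was at 0.0653 RPKM in the Osr2-/- library (0.0306 to 0.117, about 10 reads) and was listed at 0 in the Osr2+/- library. A count of 0 in the Osr2+/- library allows a level of up to 0.122 RPKM, the level of 3 reads, which is above the Osr2-/- value. The 10 pericyte and smooth muscle markers had a summed level of 23.1 RPKM in the Osr2-/- library, where Cnn1 was listed at 0, and 25.3 RPKM in the Osr2+/- library. Single markers went both ways: of the 5 compared, 2 had an interval below 1 and 1 above it, beside 15.5% and 7.62% of all genes compared. Tbx20, a heart factor at chr9:24525256-24578747, was at 0.0147 RPKM in the Osr2-/- library (about 3 reads, all on its longest row of 6436 bases) and was listed at 0 in the Osr2+/- library, where 0 reads allow up to 0.0888 RPKM. Neither gene can be said to differ between the libraries.

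In the deeper Osr2-/- library the order of levels was Tbx3, Tbx2, Tbx15, Tbx22, Tbx1, Tbx4, Tbx18, Tbx20 and Tbx5. Tbx3, Tbx2 and Tbx15 were each apart from the next gene by their counting intervals, and so was Tbx1 from Tbx4. Tbx22 and Tbx1 overlapped, as did each neighbouring pair from Tbx4 down to Tbx5. In the Osr2+/- library the first 6 genes had the same order, but only Tbx3 was apart from the next; every pair of neighbours from Tbx2 to Tbx5 overlapped.

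**Figure D3:**
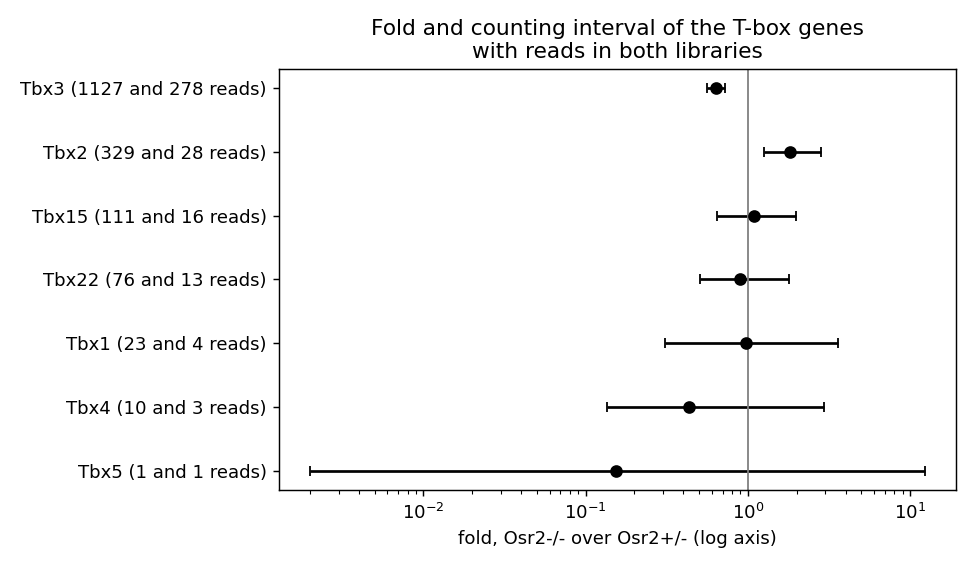
Fold of RPKM, Osr2-/- over Osr2+/- (log axis), with 95% counting intervals for the 7 T-box genes with reads in both libraries; labels give the estimated reads in the Osr2-/- and then the Osr2+/- library. The intervals of Tbx3 and Tbx2 exclude 1, and those of the other 5 genes include it and widen as the reads become fewer.

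The genomic pairs each held 1 expressed and 1 nearly silent gene. Tbx4 starts 48.1 kb beyond the end of Tbx2 on chromosome 11, and the adjoining Bcas3, which ends 6.56 kb before Tbx2, was at 1.32 RPKM in the Osr2-/- library and 1.69 RPKM in the Osr2+/- library. Tbx5 starts 150.1 kb beyond Tbx3 on chromosome 5, and Rbm19, the next gene listed, was at 1.49 RPKM in the Osr2-/- library and 1.16 RPKM in the Osr2+/- library. Within 500 kb of the members lie 48 other genes, of which 24 reached 1 RPKM and none was 2-fold apart. Of all genes compared, 0.890% were at least 2-fold higher and 0.798% lower, and 2.55% and 3.57% passed 1.5-fold. The 1 neighbour past 1.5-fold was Mir1306, near Tbx1, with a log2 ratio of -0.85 on about 9 Osr2-/- and 3 Osr2+/- reads. Its row of 79 bases lies within Dgcr8, whose log2 ratio was 0.01. These neighbours were named after their values were seen. Their median log2 ratio was -0.05, the same as that of all genes compared.

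**Figure D4:**
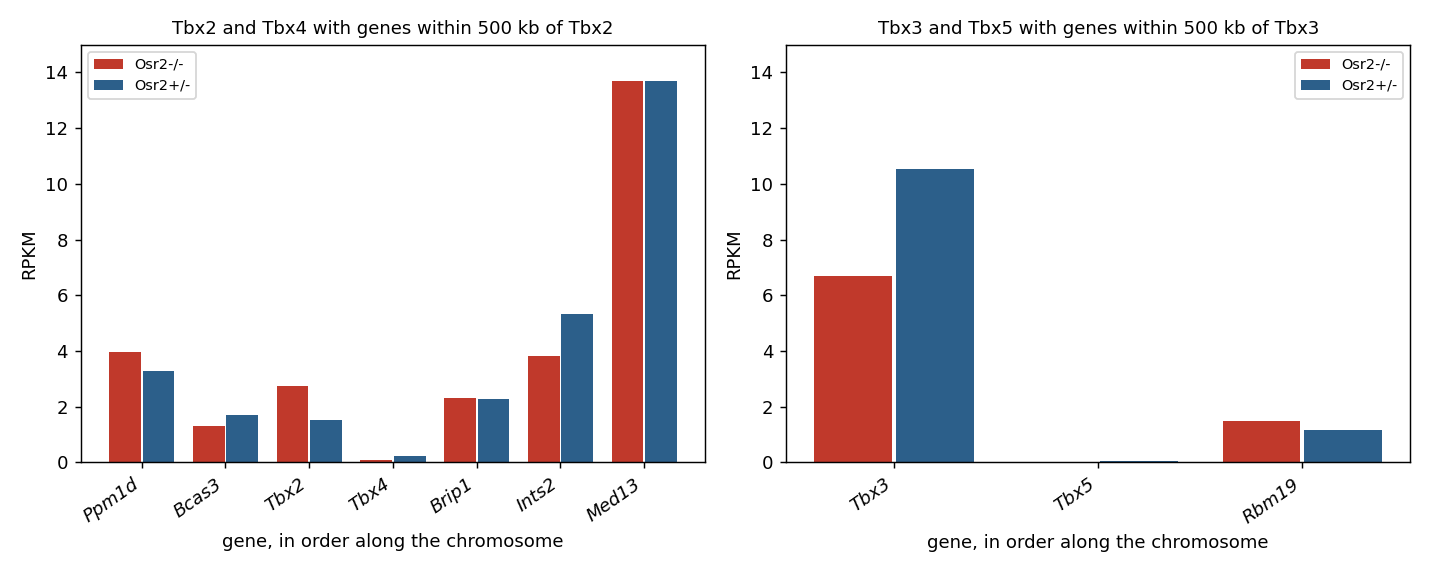
RPKM in the Osr2-/- (red) and Osr2+/- (blue) libraries of Tbx2 and Tbx4 (left) and of Tbx3 and Tbx5 (right), with the other genes within 500 kb of Tbx2 or Tbx3 in chromosome order. Tbx4 and Tbx5 are near 0 beside their expressed neighbours.

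Of 8 further T-box genes, Mga was the one expressed. Mga, which encodes a large protein with both a T-box and a helix-loop-helix domain that pairs with Max, was at 5.11 RPKM in the Osr2-/- library (about 2380 reads) and 4.92 RPKM in the Osr2+/- library (about 360 reads). Its fold was 1.04 (0.927 to 1.16). This interval is narrow, but it covers counting error only and not the spread within a genotype. T, Tbx19, Tbx21 and Eomes were listed at 0 in both libraries. Tbx6, Tbx10 and Tbr1 had at most 3 reads in either library.

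Genes for co-repressors, through which T-box factors repress their targets, were compared next. Of 12, 8 were compared, none was 1.5-fold apart (2.55% of all genes were higher and 3.57% lower by that much), and the median log2 ratio was -0.02. The Groucho gene Tle3 was the 1 of these 8 with an interval below 1, as were 15.5% of all genes compared. It was at 5.74 RPKM in the Osr2-/- library and 7.06 RPKM in the Osr2+/- library (fold 0.813, 0.697 to 0.956). The other Groucho and co-repressor genes compared had intervals that include 1. Tle1, another Groucho gene, was at 5.57 RPKM in the Osr2-/- library and 6.50 RPKM in the Osr2+/- library. Aes, a shortened Groucho gene, was at 17.4 RPKM in the Osr2-/- library and 15.6 RPKM in the Osr2+/- library. The Ripply family was low or absent. Ripply1 and Ripply2, adaptors between T-box factors and Groucho, were listed at 0 in both, and Ripply3 was at 0.613 RPKM in the Osr2-/- library and 0.780 RPKM in the Osr2+/- library.

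Of 14 genes for known regulators and partners of T-box factors, 6 were compared, none was 1.5-fold apart, and the median log2 ratio was -0.01. Eya1, a transcriptional co-activator gene, was at 8.86 RPKM in the Osr2-/- library and 7.69 RPKM in the Osr2+/- library (1.15, 0.982 to 1.36). Mn1, which is required for Tbx22 expression in the mouse palate, was at 8.502 RPKM in the Osr2-/- library and 9.61 RPKM in the Osr2+/- library (0.884, 0.784 to 1.002). The heart partners Gata4 and Nkx2-5 of Tbx5 and Tbx20 were listed at 0 in both libraries.

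Genes known as targets of T-box factors in other tissues lay on both sides. Of 16, 7 were compared, 1 was at least 1.5-fold higher, 1 at least 1.5-fold lower on the log2(RPKM + 1) scale, beside 2.55% and 3.57% of all genes, and the median log2 ratio was -0.12. Fgf10, a growth factor gene activated by Tbx4 and Tbx5 in limb and lung, was at 1.19 RPKM in the Osr2-/- library and 2.56 RPKM in the Osr2+/- library (fold 0.467, 0.350 to 0.639). Cdkn1a, which encodes the cell cycle inhibitor p21 and is repressed by Tbx2 in cultured cells, was at 1.67 RPKM in the Osr2-/- library and 0.492 RPKM in the Osr2+/- library. The fold of Cdkn1a was 3.40 (1.39 to 10.5), on about 5 Osr2+/- reads. Fgf10 and Cdkn1a were the 2 targets past 1.5-fold, in opposite directions. Mef2c, a transcription factor gene under Tbx1 control in the heart field, was at 5.65 RPKM in the Osr2-/- library and 3.83 RPKM in the Osr2+/- library (1.47, 1.23 to 1.78). Cyp26b1, which degrades retinoic acid, was at 18.3 RPKM in the Osr2-/- library and 21.1 RPKM in the Osr2+/- library (0.869, 0.791 to 0.956).

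**Figure D5:**
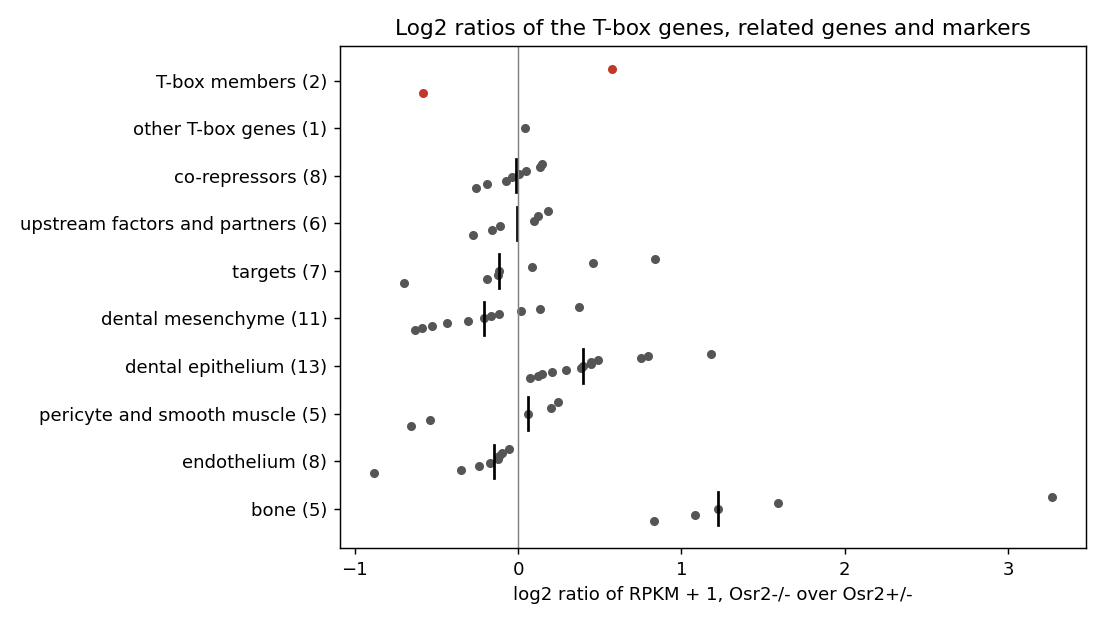
Log2 ratio of RPKM + 1, Osr2-/- over Osr2+/-, of each gene at 1 RPKM or more in either library, by list, with the number of genes in brackets and a black line at the median of lists with more than 2 genes. No co-repressor or partner is 1.5-fold apart, while Tbx2 and Tbx3 lie on opposite sides; epithelial and bone markers lie to the right and most mesenchyme markers to the left.

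The mesenchyme markers varied in size and direction. Whether the mix of cells in the captured tissue plays a part in the Tbx2 and Tbx3 differences was not tested. Pax9, required for tooth development beyond the bud, was at 39.4 RPKM in the Osr2-/- library and 61.7 RPKM in the Osr2+/- library (fold 0.639). Lhx8, a LIM homeobox gene of the jaw mesenchyme, was at 20.02 RPKM in the Osr2-/- library and 30.6 RPKM in the Osr2+/- library (0.655), and Barx1, a molar homeobox gene, at 27.2 RPKM in the Osr2-/- library and 39.6 RPKM in the Osr2+/- library (0.686). Prrx1, a homeobox gene of limb and face mesenchyme, had a fold of 0.808, while Twist1, a helix-loop-helix gene of the same tissues, had one of 1.01 and the homeobox gene Prrx2 one of 1.34. These were named after their values were seen. Of the 11 mesenchyme markers compared, 6 had an interval below 1 and 1 above it, beside 15.5% and 7.62% of all genes compared. The 1 above was Col3a1 (fold 1.10, 1.05 to 1.14), while the interval of Prrx2, 0.958 to 1.99, includes 1. The median log2 ratio of the 11 markers was -0.21. Tbx2 differed the other way, as did epithelial markers with a median of 0.40 and the bone genes, of which all 5 compared had an interval above 1.

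The T-site, the sequence bound by T-box proteins, has the core GGTGTGA. This core was searched on both strands of the RefSeq promoter windows of GRCm38.p6, which reach from 250 bases before to 50 bases after a gene's start. It was found in 3.98% of all 32851 windows. None of the 8 windows of Tbx1, Tbx4, Tbx18, Tbx20 and Tbx22 holds these letters; Tbx2, Tbx3, Tbx5 and Tbx15 were not searched. Of the 52 windows of 41 listed genes, 4 do: those of Nppa, Ripply1, Ripply2 and the second start of Cdkn1a. The Cdkn1a window is shown because it is the 1 of these 4 whose gene reached 1 RPKM. It runs from 100 bases before to 30 bases after the start, at chr17:29093669-29093798 in GRCm38.p6 on the plus strand, with the core in capitals from base 15 after the start.
Cdkn1a promoter: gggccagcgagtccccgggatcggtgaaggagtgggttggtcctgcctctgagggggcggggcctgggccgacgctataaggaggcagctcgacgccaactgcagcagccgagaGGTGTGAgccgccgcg
A match of letters is not a site shown to be bound, and no binding was measured here.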

How the data were processed

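RNA-seq libraries of laser-captured molar mesenchyme were analysed from the deposited tables. The submitters' processing notes name TopHat 1.4.1, Bowtie 0.12.7 and mm9, with no Cufflinks version. Per the file headers, each table gives RPKM, coverage and length for 28107 RefSeq transcript rows. The authors' RPKM values were used as deposited. The deposited coverage signal is not scaled for library size, and its ratio to RPKM put the Osr2-/- library at 6.38 times the depth of the Osr2+/- library.

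From these values, 54 rows that Cufflinks marked FAIL or HIDATA were left out and rows were summed per gene. Reads were estimated as coverage times length divided by 45.4 bases. This is the median of low values, from 20 to 66 bases, of single-row transcripts, so it had to fall in that range. The step is approximate, and amplified reads are not independent molecules. Intervals (exact Poisson for levels, Clopper-Pearson for folds) cover counting error only. For genes with several rows, read ratio and RPKM fold need not be equal. The log2 ratio used a pseudocount of 1 RPKM, over genes at 1 RPKM or more in either library. The interval was tried on simulated reads that held counting error only, for genes with more Osr2+/- reads than most members have. That simulation added 1 read in place of 1 RPKM, so the ratio as used here was not tested. Named genes were all members, further T-box genes at 1 RPKM or more, and up to 4 genes per related list by absolute log2 ratio; the Ripply genes, the nearest neighbours and the mesenchyme markers were added, and a few genes under this rule are not reported here. Members and lists were chosen with earlier results of these data known. Python 3.11.15, SciPy 1.17.1 and pandas 2.3.3 were used. Locus starts count from 0 in the files and are given from 1.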

Additional observations from a re-analysis of the deposited data

How the results depend on the processing

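The direction of Tbx2 and of Tbx3 was the same under each alternative that gave a value: 0.58 to 0.86 for the log2 ratio of Tbx2 and -0.65 to -0.54 for that of Tbx3. Tbx2 had no value with a filter of 5 RPKM, which leaves 1 T-box gene compared and 1 with an interval apart from 1. Taking 100 bases per read, the interval of Tbx2 was 1.02 to 3.45 and that of Tbx3 0.522 to 0.779. Without a filter 9 T-box genes were compared and on the TPM scale 6. The number of T-box genes at least 1.5-fold apart was 0, but 2 with a pseudocount of 0.1 RPKM, 3 on the TPM scale and 1 after centring on the median. Besides Tbx2 and Tbx3, the TPM scale counts Tbx4 (-0.66), on about 10 Osr2-/- and 3 Osr2+/- reads. Its counting interval of 0.135 to 2.96 includes 1. Genes at least 2-fold higher and lower numbered 87 and 78, against 197 and 244 with the pseudocount of 0.1 RPKM, 24 and 26 with the filter of 5 RPKM and 895 and 690 on the TPM scale. At 1.5-fold they numbered 249 and 349, against 556 and 832, 68 and 107, and 1705 and 1626 under the same 3 settings. On the TPM scale, 1 further T-box gene, 1 co-repressor, 2 partners and 5 targets were 1.5-fold apart; 1 co-repressor was with the highest transcript row, and 0 targets were with the filter of 5 RPKM. On the TPM scale both the filter of 1 and the added 1 stand for less than 1 RPKM. That setting therefore keeps lower genes and also has a smaller pseudocount. The 5 RPKM filter keeps fewer genes. How much each step contributes was not tested. The log2 ratios of low members moved with the pseudocount of 0.1 RPKM, to -0.71 for Tbx4 (-0.15), 0.72 for Tbx18 (0.09) and -0.50 for Tbx5 (-0.06). That of Tbx1, near 0, changed sign (-0.01, against 0.03 after centring). For further T-box genes the value of 0.04 is that of Mga, the 1 gene compared, against a median of -0.79 on the TPM scale. There the lower filter also lets in Tbx6, on about 1 Osr2-/- and 3 Osr2+/- reads. The median of co-repressors was -0.02, against 0.03 on the TPM scale and after centring. That of partners was -0.01, against 0.04 after centring, -0.07 on the TPM scale and -0.13 with the highest transcript row. That of targets was -0.12, against 0 without a filter. No paired analysis was possible because each genotype has 1 library. In the Osr2+/- library, 3 reads correspond to 0.0888 RPKM for Tbx20 and 0.322 RPKM for Tbx1, and depth limits values near and above these levels too.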
